A study of Mus musculus with 12 samples.

Results

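Proteasome subunit genes were taken as all genes whose symbol is Psma, Psmb, Psmc, Psmd, Psme or Psmf followed by a number. The rule found 43 of the 16288 genes listed in at least 1 of 12 RNA-seq libraries of mouse C2C12 cells, an immortalized line of skeletal myoblasts that fuse into myotubes when serum is withdrawn. Of the 43 genes, 42 passed the filter on low counts, and Psmb11, the thymus form of a catalytic subunit, did not. The libraries form 6 groups of 2, labelled A and B and described as biological duplicates. Cells were proliferating (GM) or had been induced to differentiate for 24 h or 48 h with horse serum and insulin (DM 24h and DM 48h). At each stage they received DMSO, the vehicle, or 50 uM PFI-3, which binds the bromodomains of the SWI/SNF ATPases BRM and BRG1 and of PB1. The compound or vehicle was given for 12 h before the GM harvest or before induction, and in differentiating cells it was renewed every 24 h. All groups come from a single cell line, and bulk RNA cannot tell a change per cell from a change in the mix of cells. Proteasome genes held 0.436% to 0.562% of all counts in a library, and the total of expected counts ran from 12576374 to 13658352.

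The proteasome degrades proteins marked with ubiquitin. Its core is a barrel of stacked rings, with gated alpha rings (Psma genes) outside and beta rings (Psmb genes) inside, and Psmb5, Psmb6 and Psmb7 carry the cutting sites. Immune signals induce the partners Psmb8, Psmb9 and Psmb10, which take their places to form the immunoproteasome and favour peptides for display on MHC class I. The regulatory cap has a base, whose ATPases (Psmc genes) unfold substrates, and a lid, which removes ubiquitin (Psmd genes). Psme1 and Psme2 form the PA28 activator, Psme3 forms a nuclear activator, Psme4 encodes PA200, and Psmf1 encodes PI31, named as an inhibitor. In muscle this system breaks down myofibrillar proteins, and it is also used while myoblasts remodel into myotubes.

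The genes were grouped by role: 7 alpha ring, 7 standard beta ring, 6 base ATPase, 3 other base and 8 lid genes make up 31 standard subunits. The remaining genes are 3 immunoproteasome subunits, Psmb11, 3 chaperones that assemble the base, 4 activators and 1 inhibitor. Levels are given as FPKM, which scales fragments by transcript length and library size, so genes can be set side by side. In GM with DMSO the alpha ring genes ran from 68.8 FPKM for Psma3 to 149 for Psma7, and the standard beta ring genes from 148 for Psmb5 to 214 for Psmb3. The base ATPase genes ran from 84.8 FPKM for Psmc2 to 147 for Psmc3, and the lid genes from 59.9 for Psmd13 to 130 for Psmd3. All 31 standard subunit genes were thus abundant and within a few-fold of each other. The immunoproteasome genes were far lower, with Psmb10 at 6.95 ± 0.98 FPKM (SD, n = 2) and Psmb8 and Psmb9 at or below 0.1 FPKM in each GM library with DMSO.

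PFI-3 was followed by lower standard subunit RNA and higher immunoproteasome and PA28 RNA in differentiating cells. At DM 24h, 15 of the 31 standard subunit genes fell and none rose, and at DM 48h 17 fell and none rose. Differences were tested with edgeR's quasi-likelihood test on counts over all 12 libraries, with Benjamini-Hochberg adjustment over 12545 genes and calls at an adjusted p under 0.05. Over all 42 genes tested, 16 fell and 4 rose at DM 24h, against a background of 11.4% of all genes called lower and 12.2% called higher. At DM 48h, 18 fell and 4 rose, against 14% lower and 13.4% higher among all genes. Falls among proteasome genes were therefore more frequent than the background at both stages, and rises were not. The median log2 difference of the 31 standard genes was -0.23 at both stages, beside -0.001 and 0.0014 for all genes tested, and all 31 values were below 0 at each. In GM, 1 gene fell (Psmb7) and 1 rose (Psme1), against 6.15% lower and 5.46% higher among all genes, and the median of the standard genes was -0.10. Leaving out any 1 of the 4 libraries compared left 7 or 8 standard genes called lower at DM 24h and 4 to 10 at DM 48h, and lower calls over all genes then dropped from 1433 to between 659 and 715 and from 1756 to between 990 and 1046. When only the 4 libraries of a stage were fitted, 26 and 25 standard genes fell, while lower calls over all genes rose to 2756 of 12016 and 2910 of 12148. The plot of log2 differences by class shows the standard subunits left of 0 at DM 24h and DM 48h, and the immunoproteasome genes with Psme1 and Psme2 right of it. In GM 4 of the 31 standard subunits lie right of 0. The 3 immunoproteasome genes do so too, but none of these 3 was called there.

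**Figure D1:**
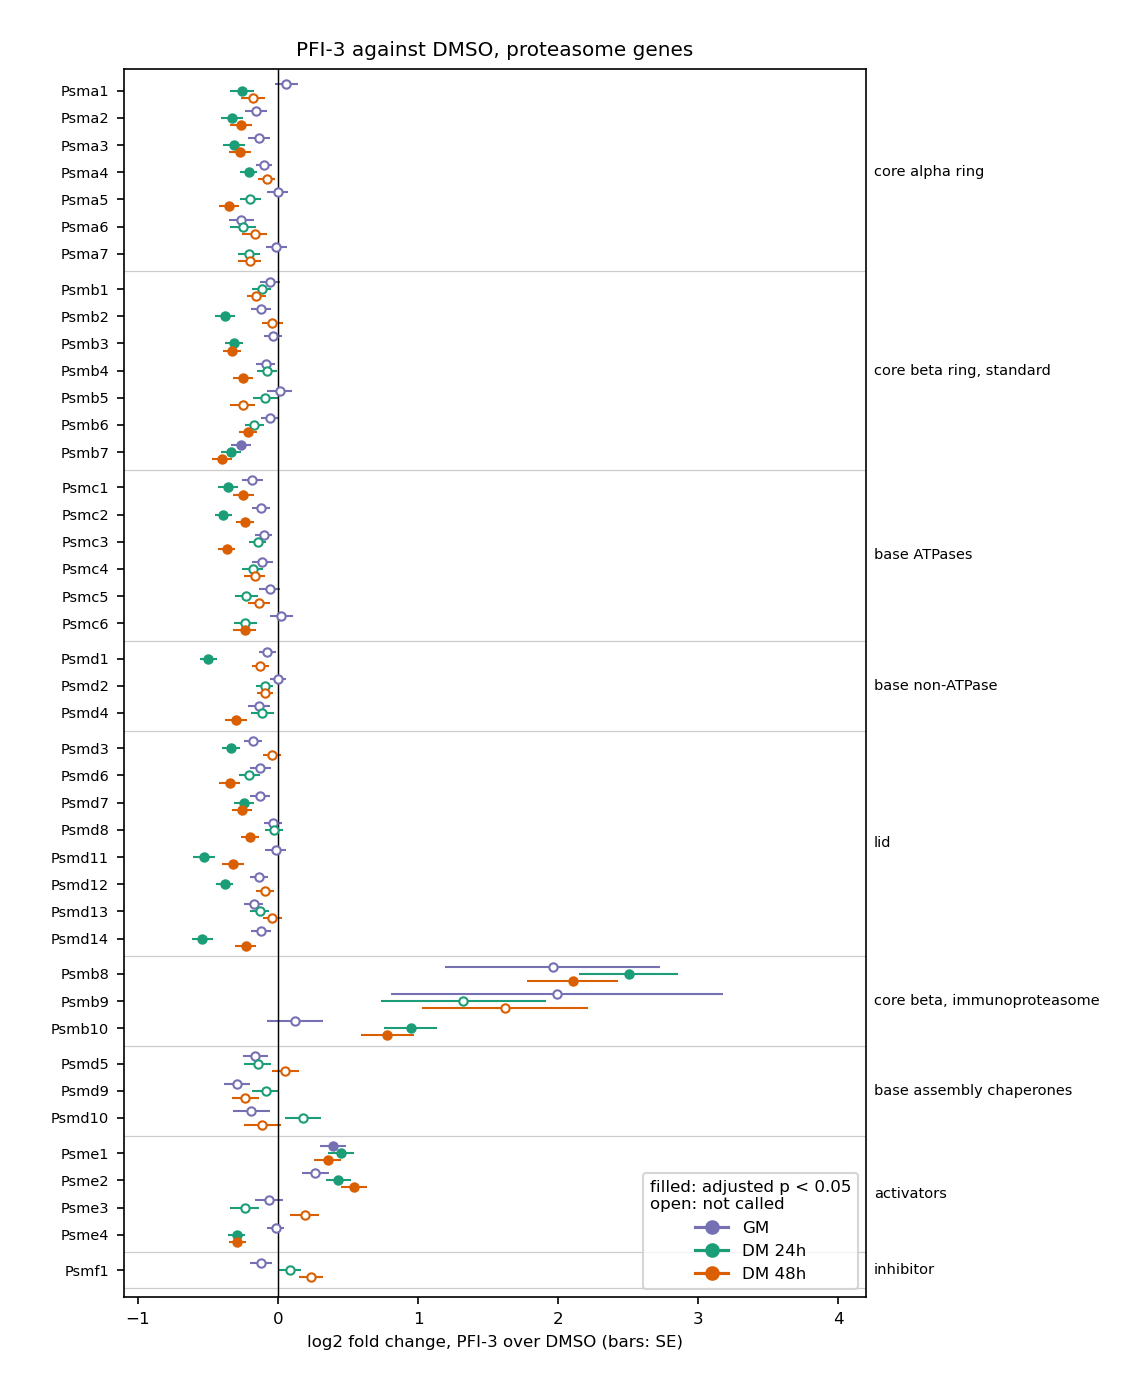
Log2 fold change of PFI-3 over DMSO (x axis) for the 42 tested proteasome genes (y axis, grouped by class) in the 3 stages. Points are edgeR estimates, bars are standard errors, and filled points passed an adjusted p under 0.05. All 31 standard subunits lie below 0 at DM 24h and DM 48h, while Psmb8 lies at 2.50 and 2.10.

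Summed over the 31 standard genes, libraries A and B held 3294 and 3223 FPKM at DM 24h with DMSO and 2864 and 2861 with PFI-3. At DM 48h the sums were 3486 and 3607 FPKM with DMSO and 3190 and 3281 with PFI-3. The treated sums lay below both vehicle sums at each stage, without overlap. The ratio of group means was 0.878 ± 0.014 after 24 h of differentiation and 0.912 ± 0.029 after 48 h (SD carried over from both groups, n = 2 each). In GM the ratio was 1.007 ± 0.024 in FPKM but 0.942 ± 0.029 in TMM-scaled CPM, so the direction in proliferating cells depends on the scaling. Core and cap moved by like amounts at DM 24h, with ratios of 0.887 ± 0.021 for the core and 0.869 ± 0.0077 for base and lid together. The 6 myotube markers (Myog, Myh3, Ckm, Acta1, Tnnt3 and Mymk) moved in the same direction: each fell with PFI-3 at DM 24h and at DM 48h. Their summed level was 1496 and 1499 FPKM with DMSO against 658 and 660 with PFI-3 at DM 24h, and 8915 and 8853 against 6230 and 6237 at DM 48h. Of 5 genes of undifferentiated myoblasts (Myf5, Pax7, Id1, Id3 and Mki67), 1 rose and 2 fell at DM 24h, and 3 rose and 1 fell at DM 48h. These genes did not move as one with differentiation either: with DMSO, 2 were higher and 3 lower at DM 24h than in GM. Pax7 stood at 8.90 and 10.99 FPKM in GM and 39.55 and 40.23 at DM 24h with DMSO. Among fibroblast markers, Col1a1 fell and Pdgfra rose at both stages, and the summed level of the 3 markers was 72.0 and 70.7 FPKM with DMSO and 16.2 and 16.7 with PFI-3 at DM 24h. Adipocyte markers, of which Plin1 was not listed, summed to at most 0.36 FPKM in any library, and endothelial markers to at most 0.30. The part of cell composition in the subunit result was not tested.

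Within the core, 4 of 7 alpha ring genes fell with PFI-3 at DM 24h (Psma1, Psma2, Psma3 and Psma4) and 3 at DM 48h (Psma2, Psma3 and Psma5). Psma5, an alpha ring subunit, stood at 92.5 and 98.4 FPKM with DMSO and 78.6 and 81.0 with PFI-3 at DM 48h. The treated pair lay below the vehicle pair, a log2 difference of -0.35 (SE 0.073, adjusted p = 0.00397, edgeR). Of the 7 standard beta ring genes, Psmb2, Psmb3 and Psmb7 fell at DM 24h, and Psmb3, Psmb4, Psmb6 and Psmb7 at DM 48h. Psmb7, the trypsin-like catalytic subunit, was the only proteasome gene called lower at all 3 stages. It measured 147 and 158 FPKM in GM with DMSO and 133 and 139 with PFI-3. At DM 24h the values were 138 and 124 FPKM with DMSO and 105 and 110 with PFI-3, and at DM 48h 161 and 174 against 133 and 137. No stage showed overlap between treatments, and the log2 differences were -0.26 in GM (SE 0.071, adjusted p = 0.0339), -0.34 after 24 h (SE 0.072, adjusted p = 0.0058) and -0.40 after 48 h (SE 0.071, adjusted p = 0.00128, edgeR). The call in GM was lost in 7 of 14 alternatives: when FPKM values were tested, with only the 4 GM libraries fitted, and without DMSO library A or PFI-3 library A. At DM 24h it did not hold without DMSO library A or PFI-3 library A (adjusted p up to 0.0788). Exons of Psmb7 overlap those of Nek6 on the opposite strand over 405 bases, 11.8% of its exonic bases, and Nek6 was not called with PFI-3 at any stage. Psmb5, the chymotrypsin-like subunit, was not called at any stage. It measured 109 and 106 FPKM with DMSO against 102 and 108 with PFI-3 at DM 24h, which overlap. The DM 48h values were 137 and 153 FPKM against 127 and 132, without overlap. Their log2 difference was -0.25 (adjusted p = 0.0562, edgeR), and 3 of 15 alternatives called it. Psmb6, the caspase-like subunit, measured 132 and 142 FPKM with DMSO against 126 and 127 with PFI-3 at DM 24h, where it was not called. At DM 48h it fell from 148 and 152 FPKM to 140 and 135, by 0.21 on the log2 scale (SE 0.064, adjusted p = 0.0297, edgeR), a call lost in 8 of 15 alternatives: when FPKM values were tested, with DESeq2, and without any 1 of the 4 libraries (adjusted p up to 0.168).

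Promoters of Psmb5 and Psmb6 are shown as the standard counterparts of the inducible genes, and because both hold the core of the antioxidant response element. This element binds CNC factors, among them NRF1 (Nfe2l1), known to drive proteasome genes when the proteasome is impaired. Sequences are from RefSeq (GRCm38.p6), read 5′ to 3′ on the gene's strand, from 250 bases before to 30 bases after the annotated start, and capitals mark motif matches. Psmb5 lies at chr14:54617966-54618245 (minus strand) and Psmb6 at chr11:70525107-70525386 (plus strand).
Psmb5: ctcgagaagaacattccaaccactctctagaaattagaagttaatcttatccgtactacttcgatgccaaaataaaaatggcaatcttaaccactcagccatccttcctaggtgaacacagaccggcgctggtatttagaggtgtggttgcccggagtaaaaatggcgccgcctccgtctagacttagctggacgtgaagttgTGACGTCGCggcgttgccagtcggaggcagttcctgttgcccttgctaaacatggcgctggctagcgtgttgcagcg
Psmb6: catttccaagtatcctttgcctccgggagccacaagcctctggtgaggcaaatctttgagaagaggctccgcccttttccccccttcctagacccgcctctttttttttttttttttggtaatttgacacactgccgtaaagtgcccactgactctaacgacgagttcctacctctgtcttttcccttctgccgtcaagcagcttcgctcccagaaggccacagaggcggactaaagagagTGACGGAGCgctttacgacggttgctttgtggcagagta
The core TGACNNNGC, searched on both strands in 250 bases before to 50 after the start, was found in 6 of 37 proteasome genes with a RefSeq promoter (16.2%), beside 14% of 27025 genes. Psmb5 held it at position -47 from the start and Psmb6 at -9. The longer form TGANTCAGC was found only in Psmb5, at position 42, beyond the stretch printed, and in 1.37% of all genes. CCAAT was found in 14 of the 37 (37.8%) and in 41.1% of all genes. These shares lie close to those of all promoters, and a match is a description of the letters only.

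In the cap, 2 of 6 base ATPase genes fell with PFI-3 at DM 24h (Psmc1 and Psmc2) and 4 at DM 48h (Psmc1, Psmc2, Psmc3 and Psmc6). Psmc2 stood at 90.5 and 88.2 FPKM with DMSO and 71.8 and 69.5 with PFI-3 at DM 24h. The pairs did not overlap, and the fall was 0.39 on the log2 scale (SE 0.063, adjusted p = 0.00104, edgeR). Psmc3 fell at DM 48h, from 271 and 276 FPKM with DMSO to 228 and 224 with PFI-3, by 0.36 (SE 0.061, adjusted p = 0.000876). At DM 24h it measured 165 and 164 FPKM against 154 and 153 and was not called. In the lid, 5 of 8 genes fell at DM 24h: Psmd3, Psmd7, Psmd11, Psmd12 and Psmd14. Psmd14, the deubiquitinase of the lid, measured 63.5 and 60.9 FPKM with DMSO and 45.0 and 43.6 with PFI-3, and Psmd11 measured 70.8 and 72.9 against 50.9 and 52.5. Both treated pairs lay well below the vehicle pairs, with log2 differences of -0.54 (SE 0.074, adjusted p = 0.000333) for Psmd14 and -0.52 (SE 0.079, adjusted p = 0.000663) for Psmd11. Psmd1, a scaffold of the base, measured 110 and 104 FPKM with DMSO and 76.6 and 80.4 with PFI-3, a log2 difference of -0.50 (SE 0.061, adjusted p = 0.000136, edgeR). At DM 48h the lid genes called lower were Psmd6, Psmd7, Psmd8, Psmd11 and Psmd14. Psmd6 had the largest fall there, from 64.2 and 68.4 FPKM to 54.0 and 57.1, a log2 difference of -0.34 (SE 0.077, adjusted p = 0.00585), which was lost without DMSO library B or PFI-3 library A (adjusted p up to 0.0668). The DM 48h call of Psmd8 was lost in 9 of 15 alternatives, among them each fit that left out a library. In the base, Psmd4 fell at DM 48h, from 132 and 133 FPKM with DMSO to 114 and 116 with PFI-3. Its log2 difference was -0.30 (adjusted p = 0.0142, edgeR). That call was lost in 7 of 15 alternatives, again among them each fit that left out a library. None of the 3 base assembly chaperones (Psmd5, Psmd9 and Psmd10) was called at any stage with PFI-3.

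Of the 31 standard genes, 9 fell at both DM 24h and DM 48h: Psma2, Psma3, Psmb3, Psmb7, Psmc1, Psmc2, Psmd7, Psmd11 and Psmd14. A further 8 were called at neither stage, among them Psmb1, Psmb5 and Psmd2. The DM 48h calls of Psmd14, Psmc2 and Psmd11 were lost in 7, 4 and 2 of 15 alternatives, in each case including 1 or more of those that leave out a library. Whether the response to PFI-3 differs between stages was tested directly. The response at DM 24h was lower than that in GM for 3 genes (Psmd1, Psmd11 and Psmd14), against 1.59% of all genes lower and 1.78% higher. Psma5 alone had a lower response at DM 48h than in GM, against 6.29% of all genes lower and 8.25% higher. Between DM 48h and DM 24h only Psmd1 differed, with a higher value at DM 48h, against 7.12% of all genes higher and 4.97% lower. Psmd1 measured 101 and 105 FPKM with DMSO and 101 and 99.1 with PFI-3 at DM 48h, which overlap. For the other proteasome genes tested, the immunoproteasome genes and activators included, a difference between stages was not detected with 2 libraries a group.

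The immunoproteasome genes moved the other way. Psmb10, the inducible partner of Psmb7, measured 7.46 and 7.17 FPKM with DMSO and 15.7 and 13.6 with PFI-3 at DM 24h. At DM 48h the values were 6.67 and 7.92 FPKM against 12.9 and 13.8. The treated libraries stood well above the vehicle libraries at both stages, and log2 differences were 0.95 (SE 0.19, adjusted p = 0.00391) and 0.78 (SE 0.19, adjusted p = 0.00955, edgeR). The call at DM 48h was lost without DMSO library A or PFI-3 library B (adjusted p up to 0.096). In GM the pairs overlapped, at 7.64 and 6.25 FPKM with DMSO and 9.79 and 6.45 with PFI-3. Psmb8, the partner of Psmb5, had 5 and 8 counts with DMSO and 37 and 40 with PFI-3 at DM 24h, and 10 and 9 against 40 and 46 at DM 48h. The log2 differences were 2.50 (SE 0.35, adjusted p = 0.000406) and 2.10 (SE 0.32, adjusted p = 0.000499, edgeR). Its counts in GM were 1 and 1 with DMSO and 6 and 3 with PFI-3, too few for a call (log2 difference 1.96, adjusted p = 0.145, edgeR). Psmb9, the partner of Psmb6, had at most 14 counts in any library. They were 5 and 3 with DMSO against 14 and 7 with PFI-3 at DM 24h, and 4 and 3 against 10 and 13 at DM 48h. The treated counts were higher in each pair without overlap, but neither difference was called (adjusted p = 0.123 and 0.0615, edgeR). Psmb9 counts in GM were 1 and 0 with DMSO against 2 and 3 with PFI-3, also not called (log2 difference 1.99, adjusted p = 0.296, edgeR). The ratio of summed counts, scaled by library totals, was 2.64 at DM 24h, with a 95% exact interval from 1.12 to 6.89 that covers counting error only, and 3.34 at DM 48h (1.39 to 9.22).

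Set against its standard partner in FPKM, Psmb8 stood at 0.322% and 0.509% of Psmb5 with DMSO and 2.50% and 2.56% with PFI-3 at DM 24h. Psmb10 stood at 5.40% and 5.78% of Psmb7 with DMSO and 14.9% and 12.4% with PFI-3 at that stage. At DM 48h Psmb10 stood at 4.14% and 4.55% against 9.69% and 10.1%. Together the 3 inducible genes came to 2.21% and 2.16% of the 3 standard catalytic genes with DMSO at DM 24h and to 5.92% and 4.98% with PFI-3. At DM 48h the shares were 1.74% and 1.85% against 4.19% and 4.54%, and in GM they were 1.76% and 1.39% against 2.25% and 1.60%, which overlap. The standard forms thus remained in large excess in all 12 libraries, as the plot of inducible over standard subunits shows. Among markers of immune cells, Ptprc reached at most 0.03 FPKM and Lyz2 at most 0.64, and Cd3e was not listed in any library. Itgam reached at most 0.44 and fell with PFI-3 at DM 48h. Cd68 stood higher, at 4.28 and 2.10 FPKM with DMSO and 4.26 and 7.85 with PFI-3 in GM. Of the 5 markers, 4 were listed, and they summed to 1.18 and 2.03 FPKM with DMSO against 2.77 and 2.73 with PFI-3 at DM 24h. The treated sums lay above the vehicle sums there, and at DM 48h the sums overlapped, at 1.92 and 1.65 against 1.90 and 1.88 FPKM. In GM the sums were 4.36 and 2.25 FPKM with DMSO against 4.41 and 8.07 with PFI-3. Most of each sum is Cd68, a lysosomal gene, which was not called with PFI-3 at any stage. The part of immune cells in the immunoproteasome result was not tested.

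**Figure D2:**
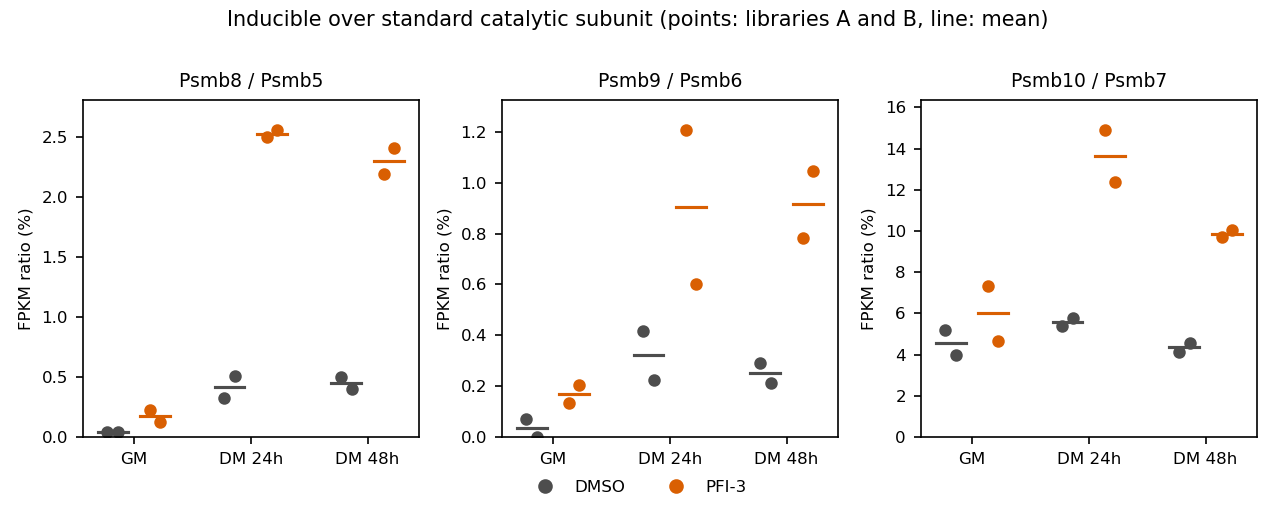
FPKM of each inducible catalytic subunit as a percentage of its standard partner (y axis) by stage (x axis) with DMSO or PFI-3; points are libraries A and B and lines are means of 2. Psmb8 over Psmb5 stood at 2.50% and 2.56% with PFI-3 at DM 24h against 0.322% and 0.509% with DMSO, and Psmb10 over Psmb7 at 14.9% and 12.4% against 5.40% and 5.78%.

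Promoters of 4 inducible genes are shown because Psmb8, Psmb10 and Psme1 rose with PFI-3, and interferon is the best known inducer of all 4 genes. Psmb8 lies at chr17:34197945-34198224 (plus strand), Psmb9 at chr17:34187301-34187580 (minus strand), Psmb10 at chr8:105938363-105938642 (minus strand) and Psme1 at chr14:55578244-55578523 (plus strand), with capitals as above.
Psmb8: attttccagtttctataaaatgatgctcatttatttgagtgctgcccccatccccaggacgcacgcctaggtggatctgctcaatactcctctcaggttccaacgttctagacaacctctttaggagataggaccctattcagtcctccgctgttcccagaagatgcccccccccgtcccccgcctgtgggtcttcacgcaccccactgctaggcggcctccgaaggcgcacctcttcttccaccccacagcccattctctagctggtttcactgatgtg
Psmb9: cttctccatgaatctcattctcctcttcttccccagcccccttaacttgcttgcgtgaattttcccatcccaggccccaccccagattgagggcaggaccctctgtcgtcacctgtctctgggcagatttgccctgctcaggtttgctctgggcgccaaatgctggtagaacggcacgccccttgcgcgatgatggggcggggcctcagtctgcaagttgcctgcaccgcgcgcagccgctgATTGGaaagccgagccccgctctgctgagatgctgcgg
Psmb10: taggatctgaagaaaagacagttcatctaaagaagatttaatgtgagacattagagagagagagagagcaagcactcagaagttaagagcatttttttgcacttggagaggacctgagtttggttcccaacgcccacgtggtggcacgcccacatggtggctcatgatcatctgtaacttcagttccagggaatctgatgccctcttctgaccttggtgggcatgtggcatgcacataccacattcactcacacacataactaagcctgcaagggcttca
Psme1: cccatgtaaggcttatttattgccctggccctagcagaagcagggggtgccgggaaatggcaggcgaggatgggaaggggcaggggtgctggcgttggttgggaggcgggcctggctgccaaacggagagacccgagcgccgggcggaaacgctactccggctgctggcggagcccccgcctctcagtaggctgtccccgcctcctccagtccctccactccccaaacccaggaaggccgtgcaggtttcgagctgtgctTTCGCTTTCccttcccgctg
The interferon response form GAAANNGAA was found in 6 of the 37 promoters (16.2%; Psmb3, Psmb4, Psmc2, Psmd4, Psmd9 and Psme1) and in 9.76% of all genes. Psme1 held it on the opposite strand at position 11, and the capitals in Psmb9 mark a CCAAT on the opposite strand at -8. Windows of Psmb8, Psmb9 and Psmb10 did not hold GAAANNGAA. Neither did those of Psme2, which also rose with PFI-3 in differentiating cells and is not printed. Windows rest on RefSeq starts, and other starts of these genes were not searched.

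The activators did not move as a class. Psme1, a subunit of PA28, was called higher with PFI-3 at all 3 stages. In GM it measured 29.9 and 30.4 FPKM with DMSO and 40.4 and 44.4 with PFI-3, at DM 24h 37.1 and 41.8 against 54.8 and 57.1, and at DM 48h 29.1 and 32.5 against 41.9 and 42.1. No pair of groups overlapped, and the log2 differences were 0.39 in GM (SE 0.093, adjusted p = 0.0213), 0.45 after 24 h (SE 0.091, adjusted p = 0.00409) and 0.36 after 48 h (SE 0.094, adjusted p = 0.0148, edgeR). The call in GM was lost with DESeq2, with only the GM libraries fitted and without PFI-3 library B (adjusted p up to 0.292). That at DM 24h was lost without DMSO library A (adjusted p = 0.059), and that at DM 48h with DESeq2 and without DMSO library A, PFI-3 library A or PFI-3 library B (adjusted p up to 0.138). Psme2, the other PA28 subunit, rose at DM 24h from 74.8 and 77.4 FPKM to 110 and 103, and at DM 48h from 55.2 and 57.7 to 86.7 and 88.2. These are log2 differences of 0.43 (SE 0.090, adjusted p = 0.00488) and 0.54 (SE 0.092, adjusted p = 0.000977). At DM 24h the Psme2 call was lost without DMSO library A or PFI-3 library A (adjusted p up to 0.0586). In GM it measured 44.0 and 51.8 FPKM against 67.5 and 56.0 and was not called (adjusted p = 0.0866). Psme2 counts are uncertain, since they were fractional in 10 of 12 libraries, as when reads are shared with a near copy. Psme4 (PA200) fell at DM 24h, from 24.5 and 23.2 FPKM to 20.4 and 19.8, and at DM 48h, from 27.2 and 26.9 to 24.1 and 22.8. Its log2 differences were -0.29 at both stages (SE 0.062 and 0.061, adjusted p = 0.0054 and 0.00424, edgeR). These calls were lost without DMSO library A or PFI-3 library B at DM 24h (adjusted p up to 0.0622) and without PFI-3 library B at DM 48h (adjusted p = 0.0566). Psme3, the nuclear activator, was not called: 68.5 and 71.2 FPKM with DMSO against 60.7 and 61.8 with PFI-3 at DM 24h, and 55.8 and 49.9 against 63.6 and 64.7 at DM 48h. It lay lower with PFI-3 at DM 24h and higher at DM 48h, without overlap, and the difference between stages was not called (0.43, SE 0.14, adjusted p = 0.0769). Psmf1, the inhibitor, measured 7.26 and 7.01 FPKM with DMSO and 9.11 and 8.69 with PFI-3 at DM 48h and was not called (adjusted p = 0.0552). PA28 RNA as a share of alpha ring RNA stood at 16.6% and 18.2% with DMSO and 28.8% and 27.1% with PFI-3 at DM 24h, in FPKM.

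**Figure D3:**
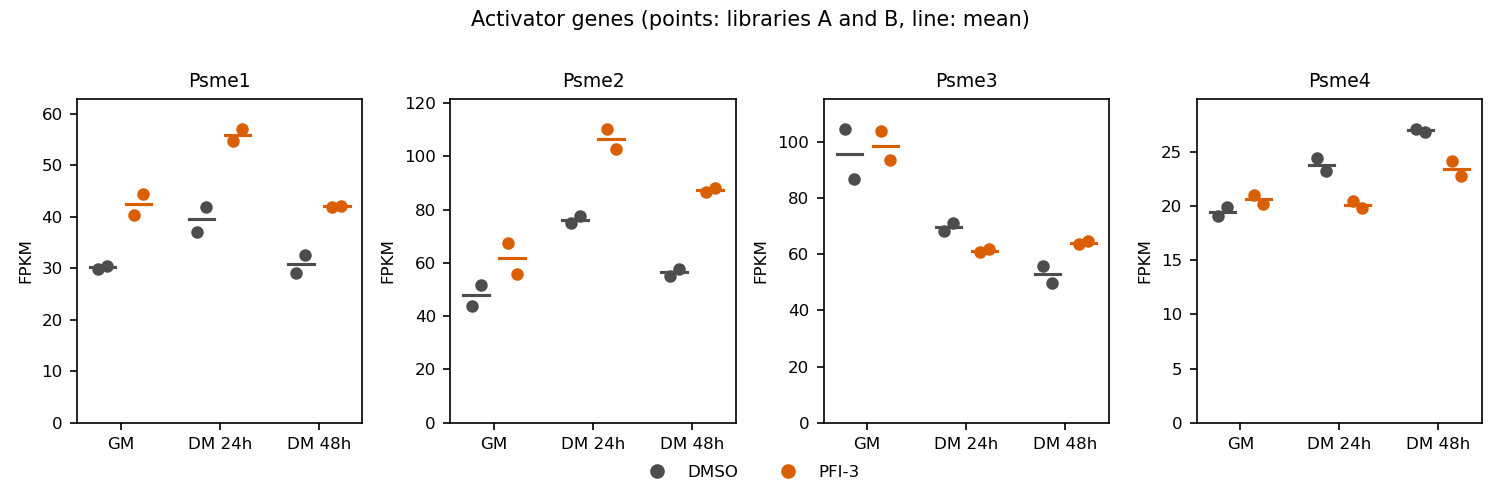
FPKM of the 4 activator genes (y axis) by stage (x axis) with DMSO or PFI-3; points are libraries A and B and lines are means of 2. Psme1 lies higher with PFI-3 at each stage, Psme2 at 110 and 103 against 74.8 and 77.4 at DM 24h, and Psme4 lower with PFI-3 at DM 24h and DM 48h.

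With DMSO alone, many standard subunit genes were lower at DM 24h than in GM, while at DM 48h both directions were seen. At DM 24h against GM, 20 of the 31 fell and none rose, and over all proteasome genes 24 fell and 5 rose, against 30% lower and 30.6% higher among all genes. At DM 48h against GM, 13 standard genes fell and 4 rose. Over all proteasome genes 16 fell and 8 rose, against 35.9% lower and 37.2% higher, so falls were about as frequent as among all genes. From DM 24h to DM 48h, 10 standard genes rose and 1 fell, and over all proteasome genes 11 rose and 5 fell, against 24.2% higher and 23.9% lower, so rises of proteasome genes were about as frequent as among all genes. The median log2 differences of the standard genes were -0.21, -0.02 and 0.13 in these comparisons, beside 0.0198, 0.026 and 0.0049 for all genes. The 3 comparisons share their vehicle libraries and are not independent. Summed FPKM of the standard genes were 3617 and 3655 in GM, 3294 and 3223 after 24 h and 3486 and 3607 after 48 h. The ratio of DM 48h to GM was 0.976 ± 0.025 in FPKM and 1.04 ± 0.022 when FPKM were rescaled to the same total in each library, so its direction depends on the scaling. The DM 24h ratio was 0.896 ± 0.015 in FPKM and 0.981 ± 0.017 with that scaling, so the size of the difference at 24 h depends on the scaling too.

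**Figure D4:**
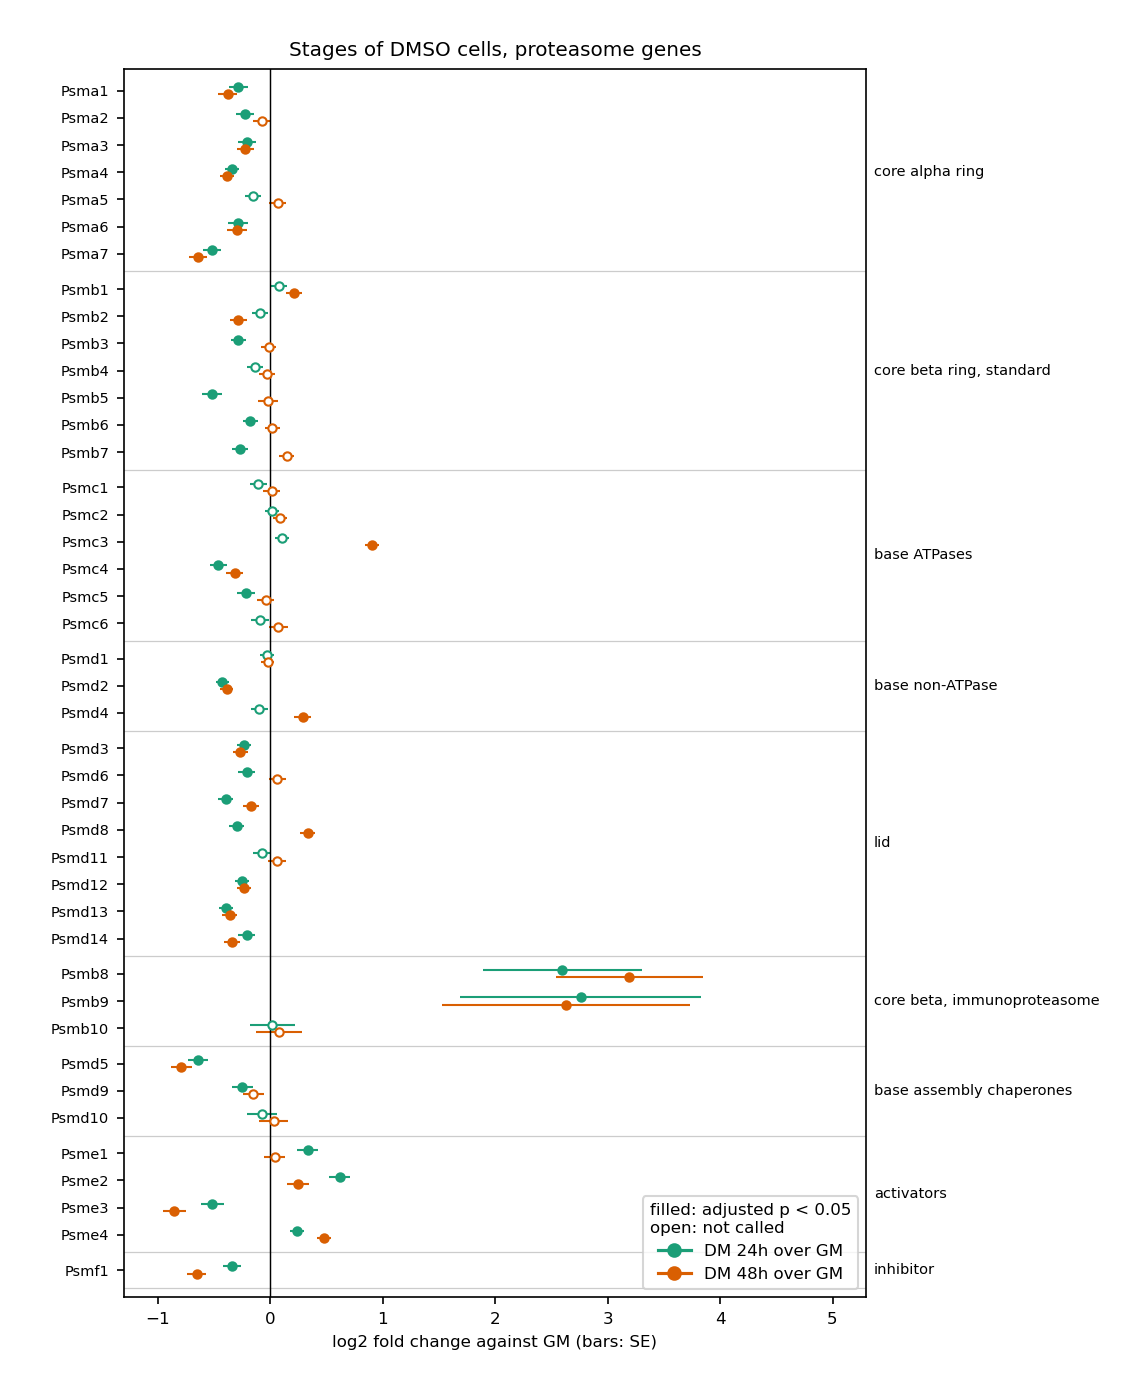
Log2 fold change of DM 24h and DM 48h over GM in DMSO cells (x axis) for the 42 tested proteasome genes (y axis, grouped by class). Points are edgeR estimates, bars are standard errors, and filled points passed an adjusted p under 0.05; the median of the 31 standard subunits is -0.21 after 24 h and -0.02 after 48 h, where Psmc3 lies at 0.90.

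Counts by class are as follows. Of the 7 alpha ring genes, 6 fell at DM 24h and 5 were below GM at DM 48h. Psma7 fell from 143 and 156 FPKM in GM to 106 and 109 after 24 h and 87.3 and 102 after 48 h, with log2 differences of -0.52 (SE 0.077, adjusted p = 0.00011) and -0.64 (SE 0.078, adjusted p = 9.99e-06, edgeR). In the beta ring 4 of 7 genes fell at DM 24h, while at DM 48h only Psmb2 was lower and only Psmb1 higher. Psmb5 showed the widest swing in that ring, at 153 and 142 FPKM in GM, 109 and 106 after 24 h and 137 and 153 after 48 h. Its 24 h pair lay below both other pairs, with a fall of 0.52 on the log2 scale from GM (SE 0.089, adjusted p = 0.000342) and a rise of 0.49 from DM 24h to DM 48h (SE 0.090, adjusted p = 0.000692). Psmb7 likewise rose between DM 24h and DM 48h, by 0.42 (SE 0.071, adjusted p = 0.000427). Psmb3, a structural beta subunit, had the smallest difference between GM and DM 48h, at 207 and 221 FPKM in GM, 185 and 180 after 24 h and 202 and 219 after 48 h.

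Psmc3 was the only base ATPase gene called higher at DM 48h than in GM. It measured 137 and 158 FPKM in GM, 165 and 164 after 24 h and 271 and 276 after 48 h. The 48 h pair lay far above the earlier libraries, a log2 difference of 0.90 from GM (SE 0.061, adjusted p = 5.03e-08) and 0.80 from DM 24h (SE 0.061, adjusted p = 5.35e-07, edgeR). Its share of the other 5 ATPase genes together, in FPKM, was 26.8% and 33.1% in GM, 35.7% and 35.8% after 24 h and 56.1% and 57.6% after 48 h. Of those 5, Psmc4 was lower at DM 48h than in GM and the others were not called. Psmc3 (chr2:91054009-91066369, plus strand, GRCm38, GENCODE M21) overlaps exons of Slc39a13 on the opposite strand over 215 bases, 8.2% of its exonic bases, and whether counting used strand is not given in the sources used here. Slc39a13, a zinc transporter gene, fell at DM 48h by 0.50 on the log2 scale (SE 0.074, adjusted p = 6.12e-05, edgeR). The nearby genes Rapsn and Celf1 are not reported here, and the part of reads from neighbouring genes in the Psmc3 result was not tested. Other cap genes rose at DM 48h too: Psmd8, a lid subunit, from 120 and 118 FPKM in GM through 103 and 97.8 at DM 24h to 151 and 148. That is 0.34 above GM on the log2 scale (SE 0.065, adjusted p = 0.000495) after a fall of 0.30 at DM 24h (SE 0.065, adjusted p = 0.00182). Psmd4, the ubiquitin receptor of the base, went from 109 and 110 FPKM in GM to 132 and 133 at DM 48h, a rise of 0.29 (SE 0.079, adjusted p = 0.0052, edgeR). The plot of base ATPase genes shows Psmc3 apart from the rest at DM 48h under both treatments.

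**Figure D5:**
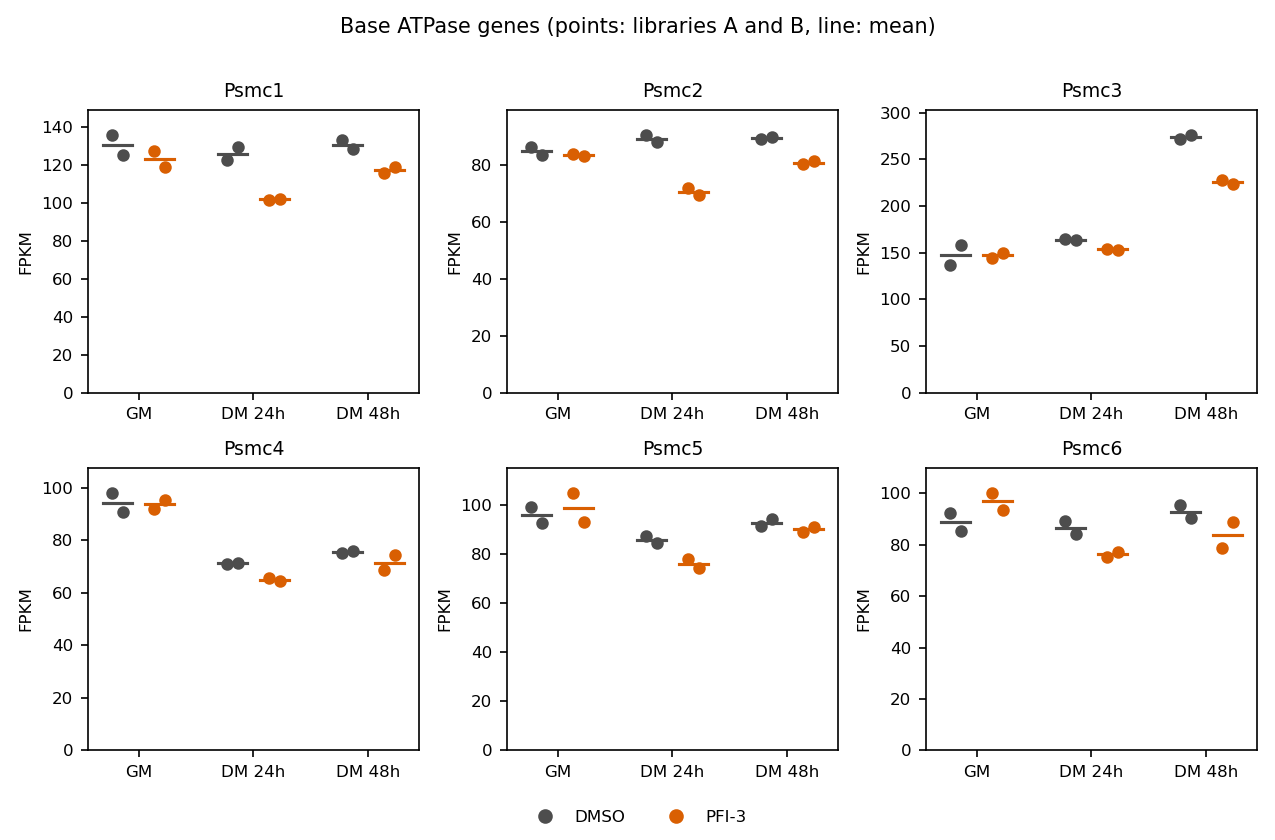
FPKM of the 6 base ATPase genes (y axis) by stage (x axis) with DMSO or PFI-3; points are libraries A and B and lines are means of 2. Psmc3 reached 271 and 276 FPKM at DM 48h with DMSO and 228 and 224 with PFI-3, from 137 and 158 in GM with DMSO.

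Outside the standard subunits, Psme3 and Psmf1 were called lower and Psme4 higher both from GM to DM 24h and from DM 24h to DM 48h. The later calls of Psme3 and Psmf1 were lost without DMSO library B of either stage, and those of Psme4 without DM 24h DMSO library A (GM to DM 24h) or B (DM 24h to DM 48h), with adjusted p up to 0.149. Psme3 fell from 105 and 87.0 FPKM in GM to 68.5 and 71.2 after 24 h and 55.8 and 49.9 after 48 h, a log2 difference of -0.85 at 48 h (SE 0.10, adjusted p = 9.15e-06). Psmf1 fell from 11.3 FPKM in both GM libraries to 8.95 and 9.58 and then 7.26 and 7.01, by 0.65 (SE 0.082, adjusted p = 1.36e-05). Psmd5, a base chaperone, fell from 50.2 and 47.9 FPKM to 35.0 and 30.3 and then 26.9 and 29.7, by 0.79 from GM to DM 48h (SE 0.092, adjusted p = 7.74e-06, edgeR), and its difference between DM 24h and DM 48h was not called (adjusted p = 0.223). Psme4 rose from 19.1 and 19.9 FPKM to 24.5 and 23.2 and then 27.2 and 26.9, by 0.48 over the whole course (SE 0.062, adjusted p = 1.61e-05). Psme1 and Psme2 rose at DM 24h, by 0.33 (SE 0.094, adjusted p = 0.00861) and 0.62 (SE 0.093, adjusted p = 0.000115), and both were lower at DM 48h than at DM 24h. The Psme1 calls were lost without DM 24h DMSO library B, and the later calls of both genes without DM 48h DMSO library A (adjusted p up to 0.206). Psme2 was still called higher at DM 48h than in GM, by 0.25 (adjusted p = 0.0317, edgeR), a call lost in 7 of 14 alternatives. Psme1 was not called in that comparison (adjusted p = 0.71, edgeR). Psmb8 and Psmb9 were called higher at both stages than in GM, on 2 counts of Psmb8 and 1 of Psmb9 in the GM libraries together. The scaled ratio for Psmb8 at DM 48h was 10.1, with a 95% exact interval from 2.44 to 89.5. The Psmb9 calls were lost in 6 and 7 alternatives, and the Psmb8 call at DM 24h without DMSO library B (adjusted p = 0.0673). Psmb10 was not called at either stage. Psmb11 had 0 to 10 counts per library.

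Genes that build or serve the proteasome under other names were counted from lists of known genes. Beside the counts that follow, all genes tested with PFI-3 were called higher in 5.46%, 12.2% and 13.4% of cases for GM, DM 24h and DM 48h in turn, and called lower in 6.15%, 11.4% and 14%. Of the 5 chaperones of the core (Pomp and Psmg1 to Psmg4), 1 fell in GM, none was called at DM 24h and 1 fell at DM 48h with PFI-3, in both cases Pomp. Pomp, the maturation factor of the beta rings, measured 125 and 128 FPKM with DMSO and 108 and 114 under PFI-3 at DM 48h, a log2 difference of -0.28 (SE 0.074, adjusted p = 0.0151). Of 7 tested factors that bind the proteasome, 3 fell at DM 24h (Adrm1, Usp14 and Txnl1), and at DM 48h Adrm1 fell and Sem1 rose. Adrm1, a ubiquitin receptor of the base, fell by 0.39 (SE 0.068, adjusted p = 0.00174, edgeR) at DM 24h. Of 14 genes of ubiquitin and its shuttles, none was called with PFI-3 in GM. At DM 24h 3 of them rose and 4 fell, and at DM 48h 2 rose and 1 fell. Among 6 tested regulators of proteasome genes, Nfe2l2 rose at DM 24h and Keap1 at DM 48h. Nfe2l1, the gene of NRF1, measured 58.4 and 61.7 FPKM in GM, 98.3 and 102 after 24 h and 142 and 143 after 48 h with DMSO, rises of 0.66 (SE 0.10, adjusted p = 0.000133) and 1.28 (SE 0.10, adjusted p = 2.45e-07). With PFI-3 it was not called at any stage. In the antigen presentation list of 12 genes, 5 rose and 2 fell in GM, 6 rose and none fell at DM 24h, and 9 rose and none fell at DM 48h, with medians of 0.49, 0.39 and 0.81 beside all genes near 0. At DM 48h H2-D1, an MHC class I gene, measured 27.1 and 27.5 FPKM with DMSO and 65.7 and 64.6 with PFI-3. H2-K1 measured 40.0 and 39.7 FPKM against 91.1 and 93.0. Tap1, the peptide transporter gene beside Psmb9, rose at DM 24h from 1.77 and 1.96 FPKM to 3.04 and 3.48, by 0.76 (SE 0.18, adjusted p = 0.0116, edgeR). Exons of Tap1 and Psmb9 overlap over 212 bases on opposite strands. Whether those bases lie in the transcripts counted was not checked, so low Psmb9 counts are uncertain. Nlrc5, a transactivator of MHC class I and immunoproteasome genes, rose by 1.65 in GM (SE 0.41, adjusted p = 0.0249) and 1.53 after 24 h (SE 0.44, adjusted p = 0.0249, edgeR). Its level was near 0 throughout, at 0.06 and 0.16 FPKM with DMSO against 0.34 and 0.42 with PFI-3 in GM. At DM 24h it stood at 0.15 and 0.06 FPKM against 0.30 and 0.32. Irf1, an interferon response factor gene, rose at DM 24h by 0.40 (SE 0.089, adjusted p = 0.00703, edgeR).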

How the data were processed

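RNA-seq libraries of C2C12 cells (12 libraries, 6 groups of 2) were prepared, sequenced and processed by BGI Americas, per the labels. The deposited tables, 1 per library, give an expected count and an FPKM value per gene, per the file headers. HISAT, StringTie, Cufflinks, Bowtie, RSEM and DESeq2 and the build mm10 are named in the submitters' processing notes, with no versions. A gene missing from a table was taken as 0. After rounding to whole numbers, expected counts were tested in 1 edgeR 4.0.16 quasi-likelihood model of 6 groups (R 4.3.3, TMM scaling, filterByExpr keeping 12545 of 16288 genes, Benjamini-Hochberg adjustment, calls under 0.05). Standard errors were derived from the F statistic. FPKM values describe levels. The same letter does not pair libraries by any label, and replicates measure the spread between duplicates. Alternatives were DESeq2 1.42.0, its size factors, other filters, fits of fewer libraries, a replicate block and limma 3.58.1 on log2(FPKM + 1). The scripts were tested on simulated data. Library totals ran from 12576374 to 13658352, and intervals cover counting error only. Members, lists and tests were chosen with earlier results of these data known. Values of single libraries, though not always of all 12, are given for catalytic pairs, activators and the inhibitor. They are also given for up to 4 called genes per direction in each comparison of 2 groups. These had the largest changes of the called genes whose mean CPM was 5 or more. The gene changing least between GM and DM 48h was added. The gene that failed the filter is given as counts. From the other lists only some of the genes called with PFI-3 in differentiating cells are named, beside 8 chosen genes that are always named. Promoters came from RefSeq (GRCm38.p6), which matched 37 of 43 genes, and gene positions from GENCODE M21. Exon overlaps and their percentages were measured over all GENCODE M21 exons of a gene, and not over the transcripts used for counting.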

Additional observations from a re-analysis of the deposited data

Results flagged for a closer look

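In 5 cases the response of a proteasome gene to PFI-3 differed between stages in a direct test (interaction contrast, edgeR's quasi-likelihood test with Benjamini-Hochberg adjustment over all genes). Psmd1 responded more negatively at DM 24h than in GM, by -0.42 on the log2 scale (SE 0.086, adjusted p = 0.0227), and less so at DM 48h than at DM 24h, by 0.37 (SE 0.086, adjusted p = 0.0149). Psmd11 differed between DM 24h and GM by -0.51 (SE 0.11, adjusted p = 0.0305) and Psmd14 by -0.42 (SE 0.10, adjusted p = 0.0484). Psma5 differed between DM 48h and GM by -0.35 (SE 0.10, adjusted p = 0.0429). Over all genes tested, 3.37% were called for DM 24h against GM, where 3 of 42 proteasome genes were, 14.5% for DM 48h against GM and 12.1% for DM 48h against DM 24h, where 1 of 42 was in each. Each of the 5 calls was lost without at least 1 of the libraries compared. The 4 calls against GM did not hold in fits restricted to the libraries compared, and the GM pairs varied more than the others: the SD of log2(B/A) over genes was 0.333 and 0.301 in GM and 0.138 to 0.151 in the 4 differentiating groups.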

How the results depend on the processing

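Counts of called proteasome genes moved with the alternatives, and so did counts over all genes, given in brackets as the share of all genes called in the same fit. Of 76 named results, 35 kept their call under every alternative run, 41 lost it at least once and none reversed. In GM with PFI-3 the count of 2 (11.6%) became 1 with DESeq2 (9.66%), 1 with limma on log2(FPKM + 1) without a filter (6.86%), 0 with only the libraries compared (0.275%, or 6.36% with a replicate block), and 1 to 8 leaving out 1 library (9.32% to 21.4%). At DM 24h with PFI-3, 20 (23.6%) became 32 with only the libraries compared (46.5%), 32 with the block (47.6%) and 9 to 13 leaving out 1 (10.3% to 11.5%). At DM 48h with PFI-3, 22 (27.4%) became 34 with only the libraries compared (46.8%), 34 with the block (49.7%), 34 with only the 8 differentiating libraries (47.2%), a fit chosen after seeing the data that gave 30 at DM 24h (44.7%), and 8 to 12 leaving out 1 (15.2% to 16.2%). For DM 24h against GM, 29 (60.6%) became 19 with only the libraries compared (53%), 14 with the block (51.9%) and 17 to 28 leaving out 1 (48.7% to 60.1%). For DM 48h against GM, 24 (73.1%) became 15 with only the libraries compared and the block (65.7%), and 19 to 22 leaving out 1 (65.1% to 71.8%). For DM 48h against DM 24h, 16 (48.1%) became 8 to 14 leaving out 1 (35.3% to 35.7%).

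For the response at DM 24h against GM, 3 (3.37%) became 6 with limma on log2(FPKM + 1) (4.74%), 5 with a pseudocount of 0.1 (3.34%), 6 with limma without a filter (3.07%), 0 with only the libraries compared (0.644%), 0 with the block (0.824%), and 0 to 4 leaving out 1 (0.72% to 7.79%). For DM 48h against GM, 1 (14.5%) became 0 with DESeq2 (12.2%), 0 without a filter (10.8%), 3 with a mean of at least 10 counts (15.1%), 3 with limma (17.1%), 2 with a pseudocount of 0.1 (14.6%), 4 with limma without a filter (12.3%), 0 with only the libraries compared (8.33%), 0 with the block (8.78%), and 0 to 5 leaving out 1 (7.91% to 22.9%). For DM 48h against DM 24h, 1 (12.1%) became 4 with DESeq2's size factors (12%), 2 with DESeq2 (11.4%), 6 with limma (13.6%), 6 with a pseudocount of 0.1 (11%), 5 with limma without a filter (9.99%), 9 with only the libraries compared (33.6%), 10 with the block (33.8%), 9 with only the 8 differentiating libraries (33.6%), and 0 to 1 leaving out 1 (6.18% to 6.77%).

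A replicate block over all 12 libraries gave 2, 21, 21, 29, 22 and 16 calls in the 6 comparisons of groups. Libraries of the same letter deviated together in GM (r = 0.504 across genes) but not at DM 24h (0.029) or DM 48h (0.047), so the letters were not taken as pairs. No setting called a standard subunit higher with PFI-3. In limma on log2(FPKM + 1) 14 standard genes were lower after 24 h and 8 after 48 h, 30 and 27 of 31 lay below 0 (16 in GM, against 27 in edgeR), and all genes split 1863 higher to 1143 lower and 2554 to 1356, beside 1533 to 1433 and 1682 to 1756 in edgeR. In GM that split was 1057 to 347 beside 685 to 771. So the direction of some standard genes differed between these fits, most often in GM. The cause of these differences was not tested. Psmb8, Psmb9 and Psmb11 are limited by depth.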

Other observations

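Muscle ubiquitin ligases, which mark proteins for the proteasome, were also counted. Of 9 muscle ligase genes, 3 rose and 2 fell with PFI-3 at DM 24h, and 1 rose and 3 fell at DM 48h, beside 12.2% higher and 11.4% lower among all genes at the former stage, and 13.4% higher and 14% lower at the latter. Trim63 (MuRF1) was not listed in the tables of the 4 GM libraries, and at DM 48h it measured 18.6 and 20.3 FPKM with DMSO and 10.6 and 10.9 with PFI-3, a fall of 0.95 (SE 0.12, adjusted p = 0.000277). Fbxo32 (atrogin-1) measured 9.82 and 9.81 FPKM with DMSO and 11.5 and 12.0 with PFI-3 at DM 24h, where it was not called. At DM 48h it fell from 17.3 and 16.8 FPKM to 11.3 and 10.3, by 0.74 (SE 0.14, adjusted p = 0.00183). In GM it fell by 0.90 (SE 0.16, adjusted p = 0.00477, edgeR), from 4.63 and 6.31 FPKM to 2.51 and 3.75.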
